A study of Mus musculus with 12 samples.

Results

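The genes described here repair bulky DNA adducts, let replication pass them, or signal the damage. They were 37 named genes among 22380 protein-coding genes of the GENCODE vM1 annotation on the mouse assembly mm9. They were chosen by name and not by a methylation value, though earlier results of these data were known. For each gene, the reads that called CpG cytosines methylated or unmethylated were summed over the promoter, 1000 bp to either side of the annotated start, and separately over the body, from 1000 bp past the start to the end of the gene. A gene entered a comparison where each of the 12 samples held at least 20 reads, which left 29 of the 37 promoters and 12 of the 37 bodies.

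DNA came from soft tissue of the mouth of female B6C3F1/J mice, 8 weeks old at the start, with the buccal mucosa, the floor of the mouth and the tissue on the hard palate pooled. Enhanced reduced representation bisulfite sequencing (ERRBS) cuts DNA with MspI at CCGG and reads the ends of the fragments after bisulfite has converted unmethylated cytosines. The 4 groups of 3 samples received DMSO, which is the vehicle, or DBP, a polycyclic aromatic hydrocarbon, or the same DBP with an unnamed chemopreventive agent, or the same DBP with BR extract. DBP was applied in the mouth over 5 weeks, 3 times in each, at 24 nmol a dose. Doses of the agent and the extract are not given in the sources used here. All tissue was taken 48 h after the last dose. No group received an agent or the extract without DBP, so both were compared only with DBP alone. The labels do not say whether each sample was 1 mouse, so the p-values of edgeR, limma and the permutation tests rest on the spread between samples. The p and q of the logistic regression on single CpGs take no account of that spread.

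As background, nucleotide excision repair finds a helix distorted by a bulky adduct, opens it with the helicases of TFIIH, cuts the damaged strand on both sides and fills the gap. Adducts that remain stall replication forks, where PCNA is ubiquitinated and low-fidelity polymerases of translesion synthesis copy past the lesion, while the kinases Atr and Atm halt the cell cycle. Promoters of such widely used genes usually lie in CpG islands, which are normally free of methylation, whereas gene bodies are normally methylated. Pooled tissue holds several cell types, so a change in methylation within cells and a change in the mix of cells cannot be told apart.

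The libraries held between 3287367 and 78889043 CpG calls. The DMSO and DBP samples had at most 7974299 calls and the samples with the agent or extract at least 16908728, so depth and treatment cannot be told apart between DBP and the groups that received more. Sample 1 with BR extract was the deepest. Of the cell type marker lists, promoters with enough reads were 2 of 10 for squamous epithelium, 3 of 10 for skeletal muscle, 1 of 8 for endothelium and fibroblasts and 0 of 8 for leukocytes. Methylation at these markers therefore could not check the labelled tissue.

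The sequence of Xrcc1, the scaffold that brings DNA ligase III to repaired gaps, shows how the reading at a promoter CpG depended on its place in the cut site. The stretch below runs from the start codon into the first intron on the plus strand of mm9, chr7:25332328-25332427. CpGs are in capitals, and the cut site CCGG is in capitals in full.
Xrcc1: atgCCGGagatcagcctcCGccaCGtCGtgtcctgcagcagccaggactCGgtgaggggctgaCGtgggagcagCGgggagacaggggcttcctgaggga
The CpG of the cut site, whose cytosine is base 5 of this sequence, was methylated in 333 of 751 reads over all 12 samples, or 44.3%, with a range of 24.0% to 66.0% among samples. At the CpGs of bases 19, 24, 27 and 50 the counts were 0 of 856, 1 of 855, 0 of 854 and 0 of 851 reads. A count of 0 of 856 allows a level of up to 0.350%, counting error only. The neighbouring CpGs thus read at or near 0% in every sample, while the cut site beside them read 24.0% or more in every sample.

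That contrast held over the promoters of these genes as a whole. Summed over all 37 promoters, CpGs inside CCGG were 29.4% ± 2.2 methylated (SD, n = 12 samples) and all other CpGs 1.97% ± 0.66. The lowest and highest samples were 27.2% and 35.5% inside CCGG and 0.755% and 3.18% outside it, so the ranges did not overlap. Promoters of all protein-coding genes gave 32.0% ± 1.9 and 2.88% ± 0.49. In the bodies of the 37 genes the values were 83.0% ± 1.3 inside and 78.1% ± 4.3 outside. Reads inside CCGG made up 13.1% to 18.9% of the promoter reads, so much of the level read over a whole promoter came from them. The cause was not tested.

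**Figure D1:**
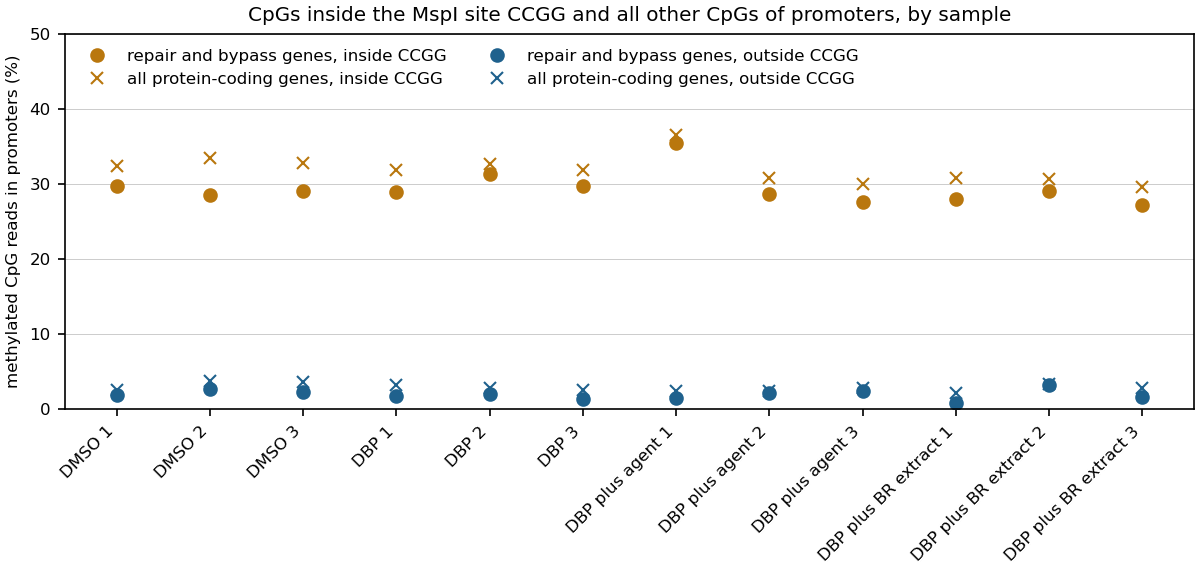
Percent of CpG reads called methylated in promoters (vertical axis) for each of the 12 samples (horizontal axis), for CpGs inside the MspI site CCGG (orange) and all others (blue). Filled circles are the 37 repair and bypass genes and crosses all protein-coding genes. In every sample the CpGs inside CCGG lie between 27.2% and 36.5% and the others at or below 3.72%.

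Outside CCGG, nearly all promoters of the repair and bypass genes were free of methylation. Of the 28 with enough reads, 27 (96.4%) had a mean under 10%, against 93.0% of 9556 promoters of all genes. The median of the means was 0.452%, against 0.698% over all genes. With all CpGs counted, 26 of 29 (89.7%) lay under 10%, against 80.7% of 10508 genes. The medians were 4.82% and 5.93%. The medians of the 4 groups were 4.84% with DMSO, 4.71% with DBP, 4.73% with DBP and agent and 4.89% with DBP and BR extract. Of 42 other genes of these pathways, such as further TFIIH, clamp-loader and Fanconi genes, 38 also lay under 10%, with a median of 5.78%. The promoters share sequence features that the choice of genes did not use. CpG was found at a median of 0.689 of the frequency that base composition gives, against 0.468 for all promoters, and 36 of 37 held CCGG on either strand, against 86.9% of all promoters. The start of another protein-coding gene lay within 1000 bp for 13 of the 37 (35.1%), against 12.2% of all genes.

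By role, means over 12 samples with all CpGs counted were as follows. For damage recognition, Xpc, Rad23b, Ddb1 and Ddb2, which find the distorted helix, lay between 3.28% and 9.24%. The transcription-coupled factors Ercc6 and Ercc8, which act where RNA polymerase stalls, had 7.50% and 4.45%. The TFIIH genes Ercc3, Gtf2h1 and Gtf2h2 lay between 3.72% and 5.90%. Xpa, which verifies the damage, and the 3 subunits of the single-strand binding protein RPA lay between 3.27% and 4.61%. The incision genes Ercc1, Ercc4 and Ercc5 lay between 3.34% and 7.46%. The gap-filling genes Lig3 and Xrcc1 had 4.70% and 11.8%. Every promoter of these steps with at least 20 reads in each sample thus lay at or below 11.8%. Among translesion genes, Polh, Polk, Rev1 and Rev3l lay between 4.44% and 6.50%, while Rad18, the ligase that ubiquitinates PCNA, stood alone at 69.7%. Msh6, a mismatch recognition gene, had 3.22%. The signalling and crosslink genes Atm, Atr, Chek1, Brca1 and Fancd2 lay between 3.51% and 15.7%.

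**Figure D2:**
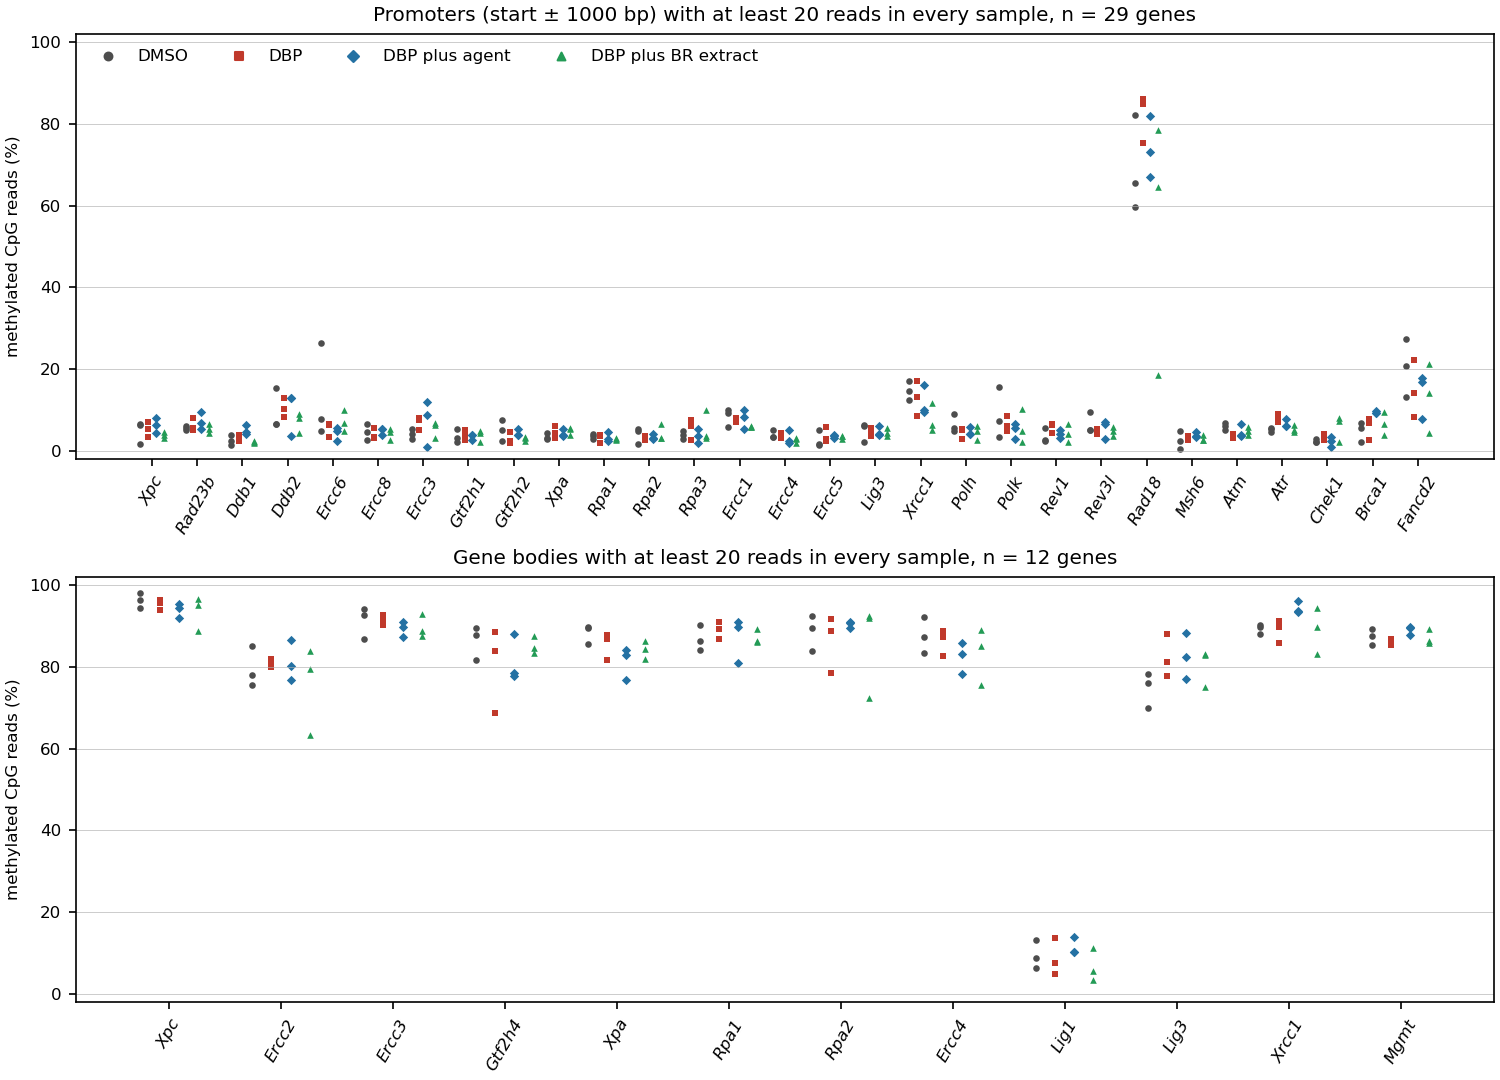
Percent of CpG reads called methylated (vertical axis) for each promoter (top, 29 genes) and body (bottom, 12 genes) with at least 20 reads in every sample; each point is 1 sample, with shape and colour for its group. Rad18 is the only promoter above 50% on average, at 69.7%, and Lig1 the only body below 50%, at 9.12%. Over all genes 3.35% of promoters and 71.5% of bodies had means above 50%, against 3.45% and 91.7% of these.

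For 8 promoters, some sample had fewer than 20 reads. Just inside the limit were Ercc6, with 38 reads in its shallowest sample, and Fancd2 and Lig3, with 48. Just outside were Cetn2 with 17, Ercc2 with 15, Gtf2h4 with 13 and Mgmt with 12. The median promoter reads were 5 each for Pcna and Chek2, 6 for Poli and 1 for Lig1, and each had a sample with no read. These last 4 promoters could hardly be read: Pcna, the sliding clamp, has a CpG-rich promoter but 1 CCGG, Chek2 has 2, Poli has 3 and Lig1 has none. Over all samples, 35.7% of the reads at Cetn2 were methylated, 12.1% of those at Gtf2h4, 11.02% at Mgmt and 4.25% at Ercc2. Cetn2, the centrin that stabilises Xpc, is the only one of the 37 genes on the X chromosome, and outside CCGG 29.6% of its reads were methylated. Promoters on the X chromosome had a median of 26.0% outside CCGG (225 genes), against 0.677% elsewhere (9331 genes).

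The high level at Rad18 came from upstream of the gene. Its annotated start is at chr6:112646680 on the minus strand. The stretch below lies at chr6:112647439-112647538 and is printed along the minus strand, with the CpGs and the cut site CCGG in capitals as above, because it held most of the promoter's methylated reads. No exon is annotated there.
Rad18: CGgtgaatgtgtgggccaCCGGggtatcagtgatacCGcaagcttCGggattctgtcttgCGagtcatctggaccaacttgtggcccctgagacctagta
The CpGs at bases 20, 37, 46 and 61 were methylated in 94.3%, 92.9%, 89.9% and 95.9% of 839, 850, 849 and 850 reads. Here the CpG inside CCGG and the others read alike. From 1000 to 500 bp upstream of the start, every sample lay between 83.6% and 98.7%. In the first 500 bp of the gene, by contrast, 17.1% of 1887 reads were methylated.

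Over the whole Rad18 promoter, the DMSO samples read 82.0%, 59.5% and 65.5%, and the DBP samples 75.2%, 86.0% and 84.9%. The samples with the agent read 66.9%, 82.0% and 73.1%, and those with BR extract 18.5%, 64.5% and 78.6%. Sample 1 with BR extract is far below the others, and the groups overlap. Its 18.5% rests on 170 of 917 reads, with a 95% Wilson interval of 16.2% to 21.2% for counting error. In that sample 16.2% of the promoter reads lay in that upstream stretch and 74.0% in the first 500 bp, whereas in the other 11 samples 53.6% to 88.9% lay upstream. Within the upstream stretch the same sample read 98.7%, the highest of the 12. The pooled promoter level thus moved with where the reads fell.

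Sample 3 with the agent differed from the rest at the start itself. Over the first 100 bp of Rad18, 155 of its 182 reads were methylated, or 85.2%, with 19 of 22 reads at each of 7 CpGs. In the other samples with 14 or more reads there, sample 1 with DMSO had 8 of 14 methylated and the rest had between 0% and 1.59%. The libraries carry no molecular identifiers, so reads copied from 1 molecule cannot be told from separate molecules.

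**Figure D3:**
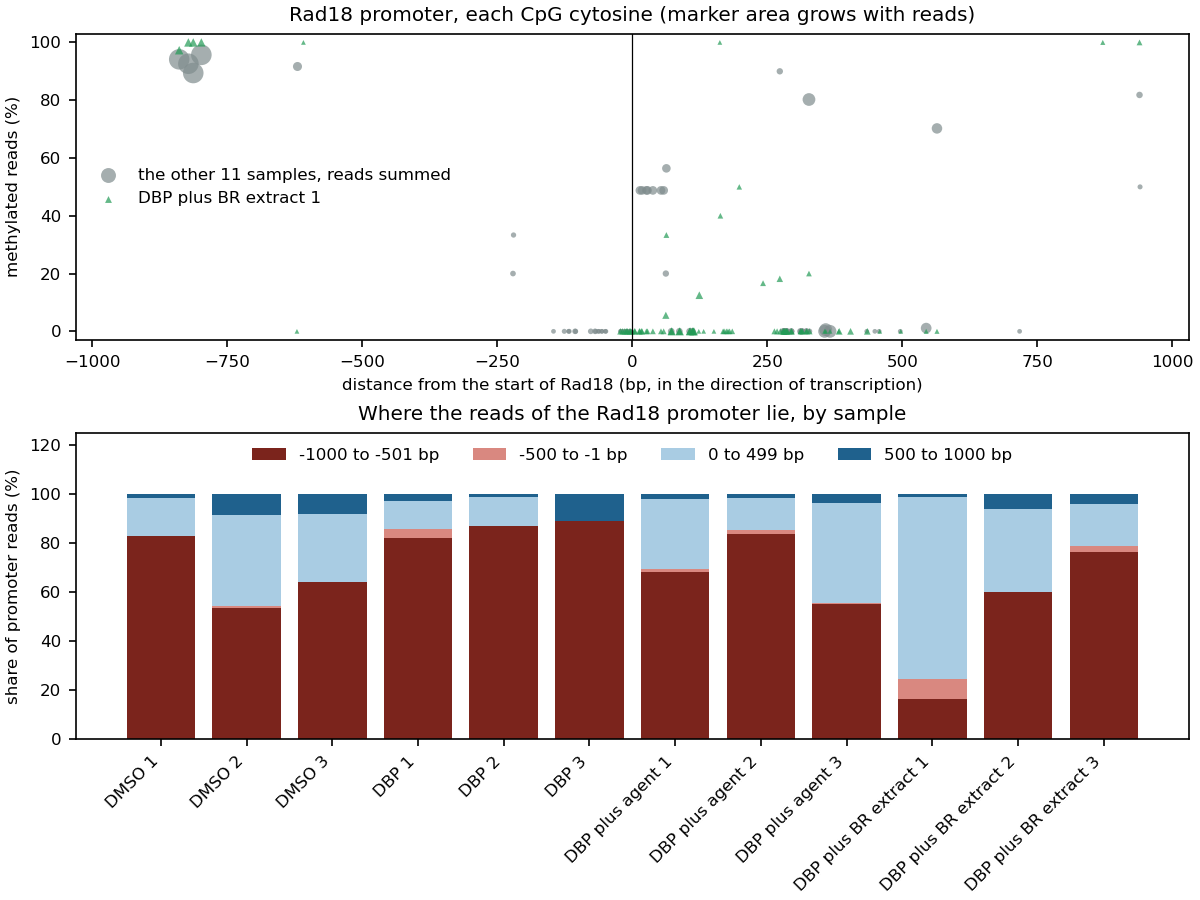
Top, percent of reads called methylated at each CpG cytosine of the Rad18 promoter (vertical axis) against distance from its start in bp (horizontal axis), for sample 1 with BR extract (green triangles) and the other 11 samples summed (grey circles), with marker area growing with reads. Bottom, share of the promoter's reads in each 500 bp of the window, by sample. Reads from 1000 to 500 bp upstream are mostly methylated in both sets, and sample 1 with BR extract has 16.2% of its reads there against 53.6% to 88.9% in the others.

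Fancd2, which is monoubiquitinated in crosslink repair, had the second highest mean promoter level, 15.7% ± 6.7 (SD, n = 12). The samples read 13.1%, 27.5% and 20.8% with DMSO, 8.33%, 14.2% and 22.2% with DBP, 16.7%, 17.7% and 7.82% with the agent, and 4.41%, 14.2% and 21.3% with BR extract. The groups overlap throughout. At least 93.5% of each sample's reads lay in the last 500 bp before the start, in a stretch shared with the oppositely oriented gene Tmem111. Its CCGG site is shown because it sets most of that level, and is printed from the plus strand, chr6:113481254-113481314, in an intron of Tmem111.
Fancd2: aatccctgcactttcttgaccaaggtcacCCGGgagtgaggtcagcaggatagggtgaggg
This CpG was methylated in 234 of 659 reads, or 35.5%. Outside CCGG, 1.34% of the reads of the Fancd2 promoter were methylated. The level of this promoter was thus mostly the level of its cut sites.

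Bodies were methylated. Of the 12 with enough reads, 9 (75%) had means above 80%, against 33.9% of 8845 genes. The median of the means was 86.2%, against 72.3% over all genes. The recognition gene Xpc had the highest mean, 94.7% ± 2.4 (SD, n = 12), followed by Ercc3 and Xrcc1 at 90.5% and 90.4%. Rpa2, Rpa1, Mgmt, Ercc4, Xpa and Gtf2h4 lay between 83.3% and 87.7%, and Lig3 and Ercc2 had 79.99% and 79.4%. Mgmt, which removes alkyl groups directly from guanine, is the longest of them and had the most cytosines read, 682. Of the other genes of these pathways, 22 bodies had enough reads, with a median of 83.9%.

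Lig1, the ligase that seals replication and repair gaps, was the exception, with 9.12% ± 3.57. Its samples read 6.48%, 8.87% and 13.2% with DMSO, 13.7%, 7.51% and 4.96% with DBP, 10.3%, 10.2% and 14% with the agent, and 11.2%, 5.74% and 3.32% with BR extract. The groups overlap. Of its body reads, 95.2% lay from 1000 to 2000 bp past the start of the gene record, where 4 further transcripts start, at 1533, 1543, 1552 and 1982 bp. There 5.61% of the reads were methylated, against 86.3% of the 371 reads farther into the gene. So the low value belongs to the region of these other starts.

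The body of Ercc1, the partner of the nuclease Ercc4, had 11 samples with enough reads and varied more than the others. Its 12 samples ranged from 32.3% in sample 2 with the agent to 95.3% in sample 1 with BR extract. The CpG inside CCGG with the most reads lies in an intron at chr7:19934763-19934823, printed from the plus strand.
Ercc1: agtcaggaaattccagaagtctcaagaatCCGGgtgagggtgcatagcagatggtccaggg
It was methylated in 336 of 598 reads, or 56.2%, and held most of the reads of that body. Its level in single samples ran from 31.8% to 100%. The 100% was sample 1 with BR extract, on 7 reads, and every other sample lay at or below 70.2%.

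The first comparison asks whether exposure to DBP went with a change at these genes. None of the 29 promoters or 12 bodies differed between DBP and DMSO at an adjusted p under 0.05 in edgeR's quasi-likelihood test, and none of all 10508 promoters or 8845 bodies did (0% in both). At an unadjusted p under 0.05 the counts were 0 of 29 and 0 of 12, against 3.03% of all promoters and 3.7% of all bodies. Limma on mean CpG percentages used positions with at least 5 reads in every sample, and also called none of the members with such positions. The numbers it tested, and its calls over all genes, are not given here. The median difference of the 29 promoters was 0.22 percentage points and of all promoters -0.25. That of the 12 bodies was -0.86 points and of all bodies -0.68.

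The promoters with the smallest p were Ercc6 and Atr. Ercc6, the translocase defective in Cockayne syndrome, read 4.92%, 26.3% and 7.89% with DMSO and 3.43%, 6.59% and 6.41% with DBP, a difference of -7.57 points (p = 0.0929, edgeR; exact permutation test, two-sided, p = 0.4). Sample 2 with DMSO alone stands high, on 15 of 57 reads, and without it the difference was -0.93 points. In that sample 38.6% of the reads lay beyond 500 bp, where 54.5% were methylated, and in the other 11 samples at most 14.6% did. Outside CCGG the Ercc6 difference was -8.37 points, and over positions read in all 12 samples -0.54 points. Atr, the kinase that answers stalled forks, read 4.70%, 5.56% and 5.26% with DMSO and 8.01%, 8.99% and 7.01% with DBP, 2.83 points higher (p = 0.0999, edgeR; exact permutation test, p = 0.1, the smallest that 3 samples against 3 allow). All DBP samples of Atr lay above all DMSO samples. Outside CCGG the difference at Atr was 0.98 points, and with each CpG weighted equally, as a mean of CpG percentages in limma, it was -0.16 points. Over positions read in all 12 samples it was 2.69 points, and with 1 sample left out 2.34 to 3.33 points.

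Among bodies, Lig3 and Gtf2h4 had the smallest p. Lig3, the ligase bound by Xrcc1, read 70.0%, 78.2% and 76.1% with DMSO and 81.1%, 77.8% and 88.1% with DBP, 7.56 points higher (p = 0.206, edgeR; exact permutation test, p = 0.2). The groups overlap by 1 sample. Counted from 2000 bp upstream to the end of the gene, which adds the promoter with its mean of 4.70%, the difference was -14.49 points. Over positions of the body read in all 12 samples it was 9.89 points, and with 1 sample left out 4.67 to 9.83 points. With the agent Lig3 read 77.1%, 82.3% and 88.2%, and with BR extract 75%, 82.9% and 83.1%. Gtf2h4, a TFIIH subunit, read 87.7%, 81.7% and 89.5% with DMSO and 68.6%, 83.9% and 88.6% with DBP, a difference of -5.92 points (p = 0.301, edgeR; exact permutation test, p = 0.6). Its DBP sample 1 is low, and without it the difference was -0.04 points. Outside CCGG it was -14.15 points, over positions read in all 12 samples 0.15 points, and in limma 2.69 points.

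The second comparison set DBP with the agent against DBP alone, and the third DBP with BR extract against DBP alone. Both share the DBP samples with the first, so a low or high DBP sample enters all of them. No member and no gene passed in either (0% of 10508 promoters and of 8845 bodies). At an unadjusted p under 0.05, 0 of 29 promoters and 0 of 12 bodies passed with the agent, against 2.12% and 3.05% of all. With BR extract 2 of 29 promoters (6.9%) and 0 of 12 bodies passed, against 3.85% and 3.78%. Limma called none of the members that it could test in either. The test for any difference among the 4 groups also called no gene, and at an unadjusted p under 0.05 it took 0 of 29 promoters and 0 of 12 bodies, against 3.62% and 4.59% of all. The lowest adjusted p of that edgeR test among members was 0.959, at a body.

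With the agent, the smallest p among promoters belonged to Brca1 and Rpa3. Brca1, which acts in homologous recombination, read 2.65%, 6.88% and 7.76% with DBP and 9.70%, 9.29% and 9.30% with the agent, 3.66 points higher (p = 0.0802, edgeR; exact permutation test, p = 0.1). All samples with the agent lay above all DBP samples, but outside CCGG the difference was 0.36 points. Over positions read in all 12 samples it was 2.43 points, and with 1 sample left out 2.11 to 4.66 points. Rpa3, the smallest RPA subunit, read 2.69%, 6.04% and 7.59% with DBP and 5.23%, 3.63% and 1.82% with the agent, so the groups overlap (p = 0.215, edgeR; exact permutation test, p = 0.4). Outside CCGG the difference at Rpa3 was 0.0669 points. In bodies, Xrcc1 read 89.8%, 85.8% and 91.2% with DBP and 93.4%, 93.7% and 96.1% with the agent. All 3 samples with the agent were above the DBP samples, by 5.41 points in the means (p = 0.0592, edgeR; exact permutation test, p = 0.1). Counted from 2000 bp upstream to the end of the gene, which adds the promoter with its mean of 11.8%, Xrcc1 differed by -3.87 points. Outside CCGG the Xrcc1 body differed by 4.24 points, and over positions read in all 12 samples by 5.32 points. With 1 sample left out it differed by 3.85 to 6.56 points. Mgmt read 86.9%, 85.3% and 86.4% with DBP and 89.7%, 89.4% and 87.8% with the agent, 2.78 points higher, again with no overlap (p = 0.134, edgeR; exact permutation test, p = 0.1).

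With BR extract, the promoters with an unadjusted p under 0.05 were Rad18 and Xrcc1. Rad18 was lower by 28.15 points in the means, 53.9% ± 31.4 against 82.0% ± 6.0 (SD, n = 3 each), with p = 0.0127 (edgeR), and its groups overlap (exact permutation test, p = 0.2). Without sample 1 with BR extract the difference was -10.49 points, and over positions read in all 12 samples it was 2.89 points in the other direction, as it was in limma, by 2.59 points. Outside CCGG, with all samples kept, the Rad18 difference was -33.97 points. The Xrcc1 promoter read 17.1%, 13.1% and 8.53% with DBP and 4.98%, 11.8% and 6.32% with BR extract, a difference of -5.21 points (p = 0.0472, edgeR; exact permutation test, p = 0.2). The DMSO samples of Xrcc1 read 12.5%, 14.6% and 17.1% and those with the agent 9.49%, 10.1% and 16.1%. All DMSO samples of Xrcc1 thus lay above all samples with BR extract, while the other pairs of groups overlap. The difference between DMSO and BR extract was not tested. Over positions read in all 12 samples the Xrcc1 difference was 0.0464 points. From 500 to 1000 bp past its start 46.8% of reads were methylated, against 5.69% in the first 500 bp, and the share of reads in that outer stretch was 9.0% to 13.5% with DBP and 3.1% to 9.5% with BR extract. In bodies the smallest p, 0.341 for Ercc2 and 0.383 for Gtf2h4, were both far from the threshold. Ercc2, the TFIIH helicase, read 81.9%, 79.9% and 81.5% with DBP and 63.3%, 83.9% and 79.5% with BR extract, where only sample 1 is low. With DMSO Ercc2 read 85.1%, 78.1% and 75.6% and with the agent 80.1%, 76.8% and 86.6%. Gtf2h4 read 83.5%, 84.5% and 87.6% with BR extract, all within the DBP range given above. Its means differed by 4.83 points, and by 9.77 points outside CCGG.

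**Figure D4:**
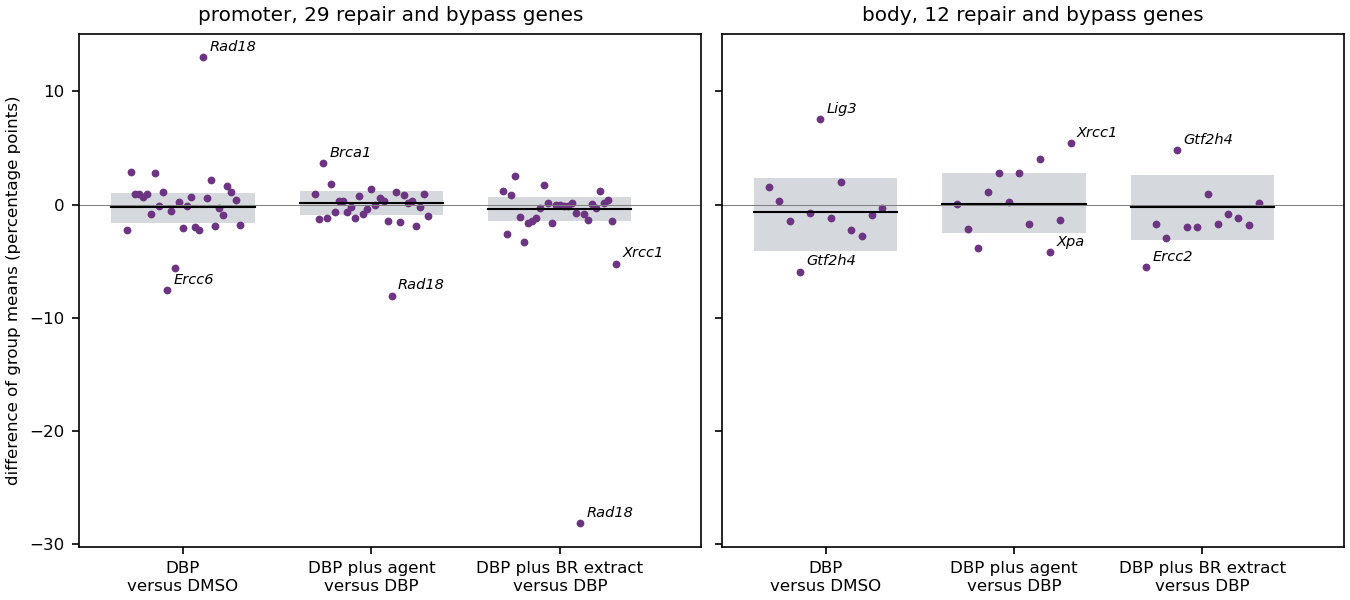
Difference of group means in percentage points (vertical axis) for each promoter (left, 29 genes) and body (right, 12 genes) in the 3 comparisons; points are repair and bypass genes, grey bands span the middle 50% of all genes tested, and black lines their medians. Most members lie within a few points of 0, and the promoter farthest out is Rad18 with BR extract, at -28.15 points.

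The other pathway genes gave the same counts at the adjusted threshold, 0 of 42 promoters and 0 of 22 bodies in each comparison (edgeR). Unadjusted p under 0.05 was reached by 0, 1 and 1 promoters in the comparisons of DBP, the agent and BR extract, and by 1, 0 and 0 bodies. The promoters were Gtf2h3, a TFIIH subunit, with 5.18% with the agent against 2.48% with DBP, and Trp53, the tumour suppressor p53, with 5.62% with BR extract against 12.2%. The body was Pole4, a subunit of polymerase epsilon, with 40.3% with DBP against 59.5% with DMSO. These 3 were named after their values were seen.

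Single CpGs were compared after the study's own scheme, a logistic regression on scaled reads with a call at q under 0.01 and a difference over 10 points. It takes no account of spread between samples beyond sampling noise. Scaling raised the counts of shallower samples before the test, so p and q rest on more counts than the reads observed there. Without scaling, calls over all CpGs went from 6902 to 1502 with the agent and from 8980 to 1921 with BR extract. Between DBP and DMSO it called 0.112% of 53618 CpGs and 0 of the 90 in member genes, of which 6 had an unadjusted p under 0.05 (6.67%, against 10.8% of all CpGs). The smallest p lay at a CpG upstream of Rpa2, printed from the plus strand at chr4:132324129-132324189.
Rpa2: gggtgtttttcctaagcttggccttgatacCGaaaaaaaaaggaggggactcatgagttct
It read 0%, 1.89% and 0% with DMSO and 12.9%, 0% and 9.09% with DBP (logistic regression, q = 0.206 over 53618 CpGs). In the samples with the agent it read 0%, 0% and 0.714%, a pooled difference of -9.41 points, under the 10 needed for a call.

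With the agent, 6 of 205 member CpGs (2.93%) were called, against 5.42% of 127381 CpGs. With BR extract, 5 of 167 (2.99%) were called, against 8.6% of 104443. Whether these shares differ was not tested. At over 25 points, 0 of 90, 1 of 205 and 0 of 167 were called for DBP, the agent and BR extract, against 0.0578%, 0.754% and 1.01% of all. By edgeR's quasi-likelihood test on the same CpGs, 0 member CpGs were called in any comparison, and over all CpGs 0, 1 and 0 were. Unadjusted p under 0.05 in that test was reached at 2 of 90, 7 of 205 and 4 of 167 member CpGs (2.22%, 3.41% and 2.4%), against 2.67%, 3.22% and 3.43% of all CpGs tested. In none of the comparisons was a promoter CpG outside CCGG called, of 56 tested with DBP against DMSO, 134 with the agent and 111 with BR extract. The share called among such promoter CpGs of all genes is not given here, so these counts have no background. The promoters of these genes had a median of 0.452% outside CCGG, which leaves little room for a fall of 10 points. Over all CpGs tested, in genes or not, calls were made at 0.0923% of those inside CCGG and 0.12% of others with DBP against DMSO, at 9.24% and 3.91% with the agent, and at 16.0% and 5.62% with BR extract.

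The call with the smallest q lay in a coding exon of Xrcc1, at base 31 of the stretch chr7:25350648-25350708 on the plus strand.
Xrcc1: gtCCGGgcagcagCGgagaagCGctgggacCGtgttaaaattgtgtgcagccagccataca
This CpG read 60%, 82.4% and 100% with DBP and 100% in all 3 samples with the agent, a pooled difference of 22.2 points (logistic regression, q = 2.81e-07). The sample range with DMSO was 63.6% to 100% and with BR extract 50.0% to 100%, so both of these groups overlap the DBP samples. The CpGs at bases 14 and 22 of the same stretch were methylated in 99.7% and 98.8% of 327 reads each. This was the only one of the called CpGs that was called whichever of the 6 samples was left out.

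The largest difference with the agent lay in an intron of Brca1, at the CCGG in chr11:101398053-101398113, printed along the minus strand.
Brca1: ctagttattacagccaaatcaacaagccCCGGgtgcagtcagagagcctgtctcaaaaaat
It read 66.7%, 42.1% and 58.3% with DBP and 79.6%, 80.8% and 80% with the agent, a pooled difference of 25.9 points (logistic regression, q = 0.000723). With DMSO it ranged from 87.5% to 100% on 6 to 17 reads, and with BR extract from 39.2% to 92.6%. The groups with DBP and with the agent did not overlap.

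A CpG in the coding part of the last exon of Mgmt was called with both the agent and BR extract, at base 31 of chr7:144319579-144319639 on the plus strand.
Mgmt: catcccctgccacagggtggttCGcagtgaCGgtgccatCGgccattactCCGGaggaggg
It read 100%, 73.3% and 100% with DBP, 98.1%, 100% and 100% with the agent and 100%, 92.3% and 100% with BR extract, and 100% in all 3 DMSO samples, on 4 to 44 reads. DBP sample 2 alone was low. Without it the differences were -0.92 and -1.01 points.

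The remaining calls were spread over 6 genes. An intronic CpG of Ercc3, the other TFIIH helicase, was called in both comparisons, with 100%, 72.2% and 90.9% with DBP, 95.6%, 97.4% and 100% with the agent and 95.4%, 100% and 94.3% with BR extract. The groups overlap there, and DBP sample 2 is the lowest of the samples that received DBP. With DMSO this CpG read 70.6%, 50% and 100%, on 17, 2 and 7 reads, so 2 DMSO samples lay below DBP sample 2. An intronic CCGG of Rpa1, the large RPA subunit, read 100%, 76.9% and 81.8% with DBP and 100% in all 3 samples with the agent. At a coding CpG in Ercc4, the incision nuclease, the DBP samples read 88.2%, 80% and 80% and the samples with the agent 70.4%, 73.8% and 43.1%. This was the only CpG of these genes called lower with the agent, and the groups with DBP and with the agent do not overlap. With DMSO it read 100%, 65.4% and 83.3%, and with BR extract 100%, 94.0% and 58.5%. The ranges of DMSO and of BR extract thus overlap both of the groups compared.

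With BR extract, 3 CCGG sites in promoters were called. The site in Xpa read 0%, 40% and 27.3% with DBP and 37.3%, 45.5% and 65.5% with BR extract, 19.8 points higher in pooled reads. The site upstream of Rpa3 read 18.2%, 41.7% and 50% with DBP and 8.24%, 25% and 29.3% with BR extract, a difference of -17.7 points. The site in Xpc read 60%, 35.3% and 19.0% with DBP and 38.2%, 30.4% and 6.10% with BR extract, a difference of -14.3 points. At all 3 the groups overlap, and the pooled level was higher at 1 and lower at 2. Leaving out DBP sample 2 ended 4 of the 6 calls with the agent and 4 of the 5 with BR extract. Leaving out sample 1 with BR extract ended 3 of those 5.

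**Figure D5:**
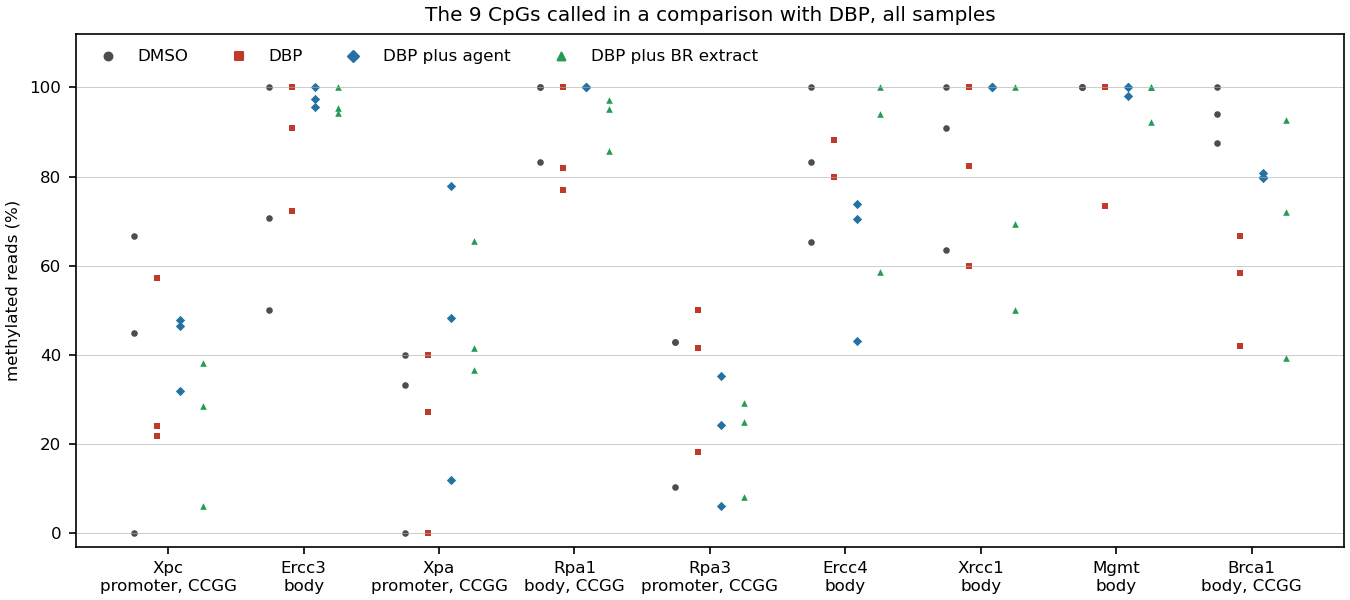
Percent of reads called methylated (vertical axis, all reads at the CpG on both strands) at the 9 CpGs of repair and bypass genes called with the agent or with BR extract; each point is 1 sample, with shape and colour for its group. At Xrcc1 all 3 samples with the agent are at 100% while DBP spans 60% to 100%, and at Mgmt DBP sample 2 alone is low, at 73.3%.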

How the data were processed

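ERRBS was performed on 12 samples, 3 per group. The authors used Trim Galore 0.3.3 for trimming and Bismark 0.10.1 for alignment to mm9 and methylation calls, per the labels and their methods. They deposited, for each CpG cytosine and strand, counts of methylated and unmethylated reads, without normalization. The percent they deposited beside the counts was not used. All 5202461 positions were CpG cytosines of mm9. The groups came from the sample labels. The genes and lists were chosen with earlier results of these data known.

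Counts were summed per gene and window. Regions with at least 20 reads in each of 12 samples were tested by edgeR 4.0.16 quasi-likelihood fits of methylated and unmethylated counts with an effect for each sample, in R 4.3.3, with Benjamini-Hochberg adjustment over all genes of the window. No covariate was used. Single CpGs were tested after the study's scheme: at least 10 reads, the 99.9th percentile as upper limit, coverage scaled to the highest median, strands merged, presence in all 6 samples, and a likelihood ratio test whose p-values were adjusted to q by Benjamini-Hochberg. Both tests were tested on simulated data. For single CpGs the simulated reads had no spread between samples beyond sampling noise and no scaling of coverage, so that check covers neither. Exact permutation tests were two-sided (SciPy 1.17.1), and for 3 against 3 cannot go below 0.1. Other tools were limma 3.58.1, NumPy 2.4.6 and pandas 2.3.3 in Python 3.11.15. Intervals and limits for counts of 0 cover counting error only.

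Values of each sample are given for members passing a test, the 2 with the smallest p per window and comparison, the 3 highest promoters and 3 lowest bodies, promoters over 20%, and called CpGs or else the CpG with the smallest p. The Rad18 profile, the sequences printed and the split by CCGG were chosen after the data were seen. Alternatives comprised read minimums, windows, positions, other tests, a replicate block and leaving out each sample. Sequences were read from the mm9 genome.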

Additional observations from a re-analysis of the deposited data

How the results depend on the processing

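No promoter or body of the 37 genes was called under any alternative but 1. Logistic regression without overdispersion called 1, 2 and 7 of 29 promoters for DBP, the agent and BR extract and 19 for any difference among the 4 groups, and 2, 1 and 7 of 12 bodies for the agent, BR extract and any difference. Over all 10508 promoters it called 3.73%, 10.2%, 23.6% and 62.4% for DBP, the agent, BR extract and any difference, and over all 8845 bodies 24.1%, 39% and 70.4% for the last 3 of these. In DBP against DMSO it called 0 of 12 bodies and 16.5% of all. Leaving out each sample gave 0 calls of members throughout. With CpGs inside CCGG left out, or over positions read in all 12 samples, no gene at all passed in the 3 comparisons. The lowest adjusted p there was 0.283 (edgeR). For the remaining alternatives the calls over all genes are not given here, so those counts of 0 have no background.

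Among single CpGs, calls in member genes with DBP against DMSO stayed at 0, on 24 to 231 member CpGs. Over all CpGs tested the logistic regression called 0.0276% to 0.601% in these settings. Such small shares make the 0 no result about these genes. With the agent the 6 calls of 205 became 16 of 452 at a minimum of 5 reads (5.65% of all CpGs tested), 0 of 61 at 20 reads (4.76%), 2 without scaling of coverage (1.18%), 11 at q under 0.05 (8.6%), 1 over 25 points, and 0 by edgeR. With BR extract the 5 calls of 167 became 8 of 337 at 5 reads (6.62%), 0 of 41 at 20 reads (7.69%), 1 without scaling (1.84%), 0 over 25 points, 2 of 128 with CpGs inside CCGG left out (5.47%; chosen after seeing the data), and 0 by edgeR. The number of CpGs tested changed with the minimum, with CCGG left out and with the sample left out. Leaving out 1 sample gave 6 to 11 calls with the agent (11 without DBP sample 1 or 3). These were 2.53% to 4.62% of the member CpGs tested, against 4.35% to 6.43% of all. With BR extract it gave 3 to 8 calls (3 without BR extract sample 1, 8 without DBP sample 1 or BR extract sample 2). Those were 1.36% to 4.76% of the member CpGs tested, against 5.55% to 10.3% of all.

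Differences reversed as follows, in percentage points. Over positions read in all 12 samples, Gtf2h4 bodies gave -2.45 with BR extract and 0.15 with DBP, and promoters of Rad18 and Xrcc1 2.89 and 0.0464 with BR extract. By mean CpG percentages with limma, Gtf2h4 gave -10.01 and 2.69, Rad18 2.59 and Atr -0.16. Counting from 2000 bp upstream to the end, Xrcc1 gave -3.87 with the agent and Lig3 -14.49 with DBP. That window pools the low promoter with the body, so it does not measure the body alone. Without CCGG, Rpa3 gave 0.0669 with the agent. Other differences grew without CCGG. The Gtf2h4 body gave -14.15 with DBP and 9.77 with BR extract. The promoters of Rad18 with BR extract and of Ercc6 with DBP gave -33.97 and -8.37. Leaving out 1 sample ranged from -9.69 to 0.58 for Ercc2 and -1.05 to 8.94 for Gtf2h4 with BR extract, and from -0.923 to 16.1 and -1.01 to 15.4 for the Mgmt CpG with the agent and BR extract, lowest without DBP sample 2. The cause was not tested.

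Correlations of deviations from group means between same-numbered samples ran from -0.100 to 0.214 over promoters and from -0.0881 to 0.340 over bodies, with 1 and 4 of 18 pairs over 0.1. Their means were 0.0264 and 0.0506, against -0.0134 and -0.0257 for different numbers. Since not every pair was over 0.1, the numbers were not taken to pair the samples. With a replicate block, calls of member regions stayed at 0, and the calls over all genes are not given here. Calls of member CpGs were 0 of 90, 8 of 205 and 2 of 167 for DBP, the agent and BR extract. These were 0%, 3.9% and 1.2%, against 0.106%, 5.65% and 7.88% of all CpGs tested. Depth limited the reading most at DMSO and DBP, the shallower groups.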
